A study of Homo sapiens with 2 samples.

Results

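The peaks described here are the intergenic binding sites of NRF1 that lie near a gene and hold a complete antioxidant response element (ARE). They had their centre outside every protein-coding gene, more than 2 kb from every annotated transcription start site (TSS) and at most 50 kb from the nearest protein-coding TSS. On either strand they held TGACTCAGC or TGAGTCAGC, called the full ARE below. Of 5683 NRF1 peaks, 703 met this rule (12.4%, 95% exact interval 11.5 to 13.3%), which uses position and reference sequence but no measured value. They came from HCT116, an established human colorectal cancer cell line. The cells were treated with MG132, a proteasome inhibitor, at 1 µM for 16 h, and NRF1-bound DNA was sequenced by chromatin immunoprecipitation (ChIP-seq). The list comes from 1 ChIP library. The input of the same treated cells, untreated cells and cells without NRF1 were not analysed here. No value therefore has a replicate error or a contrast with control cells, peaks of 1 library are not replicates, and the tests and intervals below describe this list of peaks. A peak list holds no expression, so markers of the cell line could not be checked and a nearest gene is named by distance alone.

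NRF1, encoded by NFE2L1, is a transcription factor of the cap'n'collar basic leucine zipper family, made in the endoplasmic reticulum membrane and released to the nucleus when the proteasome is impaired. It binds the ARE as a heterodimer with a small MAF protein. The TGA side of the element is read by the cap'n'collar partner and the GC side by MAF. The full ARE begins with the palindrome TGACTCA or TGAGTCA, which AP-1 also binds. NRF1 is best known for raising proteasome subunit genes after proteasome inhibition. Related factors of the family act on genes of antioxidant defence and iron storage, partly from enhancers at a distance from the promoter.

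The sequences around the ARE are shown first for the members with high scores or beside stress-response genes. Each is named after the nearest protein-coding gene, is written 5′ to 3′ on the strand of the ARE nearest to the peak centre, is taken from hg19, and has the full ARE in capitals with 20 bases on each side.
AKIRIN2, chr6:88433179-88433227, plus strand: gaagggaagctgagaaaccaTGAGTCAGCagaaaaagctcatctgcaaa
BLOC1S4, chr4:6734495-6734543, plus strand: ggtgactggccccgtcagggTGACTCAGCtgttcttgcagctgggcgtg
ALPI, chr2:233309250-233309298, plus strand: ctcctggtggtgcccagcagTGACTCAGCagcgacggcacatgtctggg
PSAP, chr10:73620359-73620407, minus strand: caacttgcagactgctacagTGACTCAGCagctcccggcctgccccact
GPC1, chr2:241327203-241327251, minus strand: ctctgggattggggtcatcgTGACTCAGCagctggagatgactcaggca
TRIM56, chr7:100743589-100743637, plus strand: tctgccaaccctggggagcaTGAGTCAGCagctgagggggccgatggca
RNF213, chr17:78228726-78228774, plus strand: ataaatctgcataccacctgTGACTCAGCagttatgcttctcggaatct
YPEL2, chr17:57500893-57500941, plus strand: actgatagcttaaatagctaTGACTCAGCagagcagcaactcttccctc
SYVN1, chr11:64918316-64918364, minus strand: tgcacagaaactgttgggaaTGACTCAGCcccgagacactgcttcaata
GADD45B, chr19:2469570-2469618, plus strand: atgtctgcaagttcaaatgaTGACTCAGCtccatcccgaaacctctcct
KLF4, chr9:110242877-110242925, minus strand: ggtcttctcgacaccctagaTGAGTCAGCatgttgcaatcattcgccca
PMAIP1, chr18:57585850-57585898, plus strand: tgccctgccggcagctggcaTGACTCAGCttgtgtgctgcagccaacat
PMAIP1, chr18:57584918-57584966, plus strand: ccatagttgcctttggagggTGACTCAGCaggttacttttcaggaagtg
ABCC2, chr10:101539710-101539758, minus strand: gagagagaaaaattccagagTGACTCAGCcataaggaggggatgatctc
ABCC4, chr13:96001735-96001783, plus strand: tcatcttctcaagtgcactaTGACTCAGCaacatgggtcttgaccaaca
PSMG1, chr21:40525389-40525437, plus strand: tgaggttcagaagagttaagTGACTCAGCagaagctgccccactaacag
KLF6, chr10:3797435-3797483, plus strand: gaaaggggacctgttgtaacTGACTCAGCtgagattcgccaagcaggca
PRDX6, chr1:173423273-173423321, plus strand: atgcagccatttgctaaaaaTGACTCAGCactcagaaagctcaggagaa

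Longer stretches are shown for 4 members because they show how AREs were arranged. The FTH1 stretch holds 1 ARE, the IPO7 stretch 2, the SLC25A10 stretch 4 overlapping matches at 2 places and the DBNDD1 stretch 5 of the AREs of a tandem array. All are on the plus strand of hg19 with the AREs in capitals, so an ARE on the minus strand reads from GC to TCA.
FTH1, chr11:61739421-61739570, plus strand: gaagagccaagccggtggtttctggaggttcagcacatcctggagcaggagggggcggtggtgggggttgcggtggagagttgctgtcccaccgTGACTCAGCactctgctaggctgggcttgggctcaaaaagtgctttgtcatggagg
IPO7, chr11:9385914-9386103, plus strand: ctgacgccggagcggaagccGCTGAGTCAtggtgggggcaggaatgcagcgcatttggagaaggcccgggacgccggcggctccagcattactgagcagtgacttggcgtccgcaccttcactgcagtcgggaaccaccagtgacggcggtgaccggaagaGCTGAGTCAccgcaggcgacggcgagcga
SLC25A10, chr17:79689682-79689759, plus strand: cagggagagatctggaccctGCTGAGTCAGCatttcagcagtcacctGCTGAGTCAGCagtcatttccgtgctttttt
DBNDD1, chr16:90062371-90062480, plus strand: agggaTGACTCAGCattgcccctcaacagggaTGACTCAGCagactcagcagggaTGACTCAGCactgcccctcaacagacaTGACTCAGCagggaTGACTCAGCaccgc

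The members were spread over 23 chromosomes, with 61 on chromosome 2 and 60 on chromosome 1 and none on chromosome Y. Their centres lay 2318 to 49767 bp from the nearest protein-coding TSS, with a median of 20759 bp. By distance, 75 were within 2 to 5 kb, 101 within 5 to 10 kb, 160 within 10 to 20 kb, 211 within 20 to 35 kb and 156 within 35 to 50 kb. Of the members, 461 (65.6%, 61.9 to 69.1%) were upstream of that TSS and 242 downstream, a split that the rule partly sets, since downstream sequence is often inside the gene. A total of 138 members (19.6%) lay in a long non-coding RNA gene, while 553 (78.7%) were outside every annotated gene. There were 71 members (10.1%) with another NRF1 peak within 10 kb. Shares over all peaks were not counted for this or for long non-coding RNA genes. Neither count can therefore be read as particular to the members.

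MACS, the peak caller, gives each peak a score that is −log10 of its p-value multiplied by 10, and the lowest score in the list was 50. Member scores ran from 50.02 to 3100, with a median of 103.69 and quartiles of 70.05 and 171.25. The number of members at a score of at least 100 was 367 (52.2%, 48.4 to 56.0%), against 44.3% of the whole list. The depth of the library is unknown from a peak list, and score also depends on it. By distance, the median was highest nearest to the TSS and showed no order beyond: it was 115.06 at 2 to 5 kb, 103.47 at 5 to 10 kb, 97.93 at 10 to 20 kb, 103.92 at 20 to 35 kb and 103.10 at 35 to 50 kb. Upstream and downstream members had medians of 103.92 and 102.69.

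**Figure D1:**
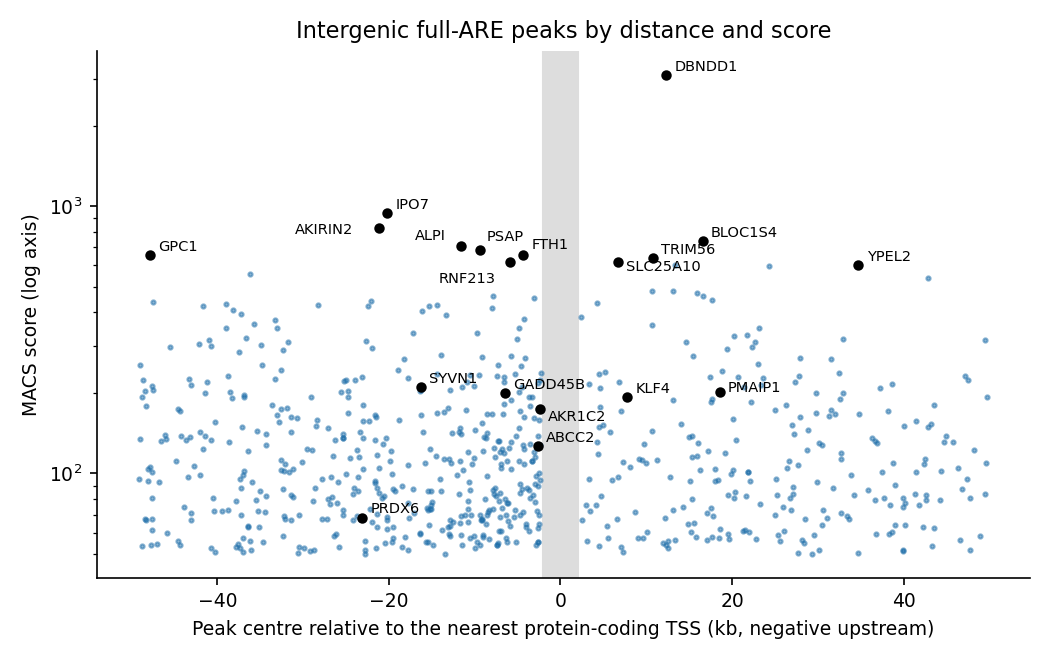
Each point is 1 of the 703 members, with its distance from the nearest protein-coding TSS in kb (negative upstream) on the x axis and its MACS score on a log y axis; the grey band is the 2 kb on each side of the TSS that the rule leaves out, and black points are named members. High and low scores occur at all distances, and the DBNDD1 member at 3100 stands above the IPO7 member at 941.

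Scores of members and of full-ARE peaks inside genes did not differ past the test. Among members, 57.0% (401 of 703) scored above the median of the list, a level that 50% of all peaks exceed. The share was 58.8% (763 of 1298) for full-ARE peaks inside protein-coding genes, a difference of -1.74 percentage points (95% Newcombe interval -6.28 to 2.77, two-sided Fisher's exact test, Benjamini-Hochberg adjusted p = 0.688 over 13 comparisons). In gene deserts, more than 50 kb from a protein-coding TSS, it was 52.3% (389 of 744), and the difference of 4.76 points did not pass the test (interval -0.375 to 9.85, adjusted p = 0.189 by the same exact test). The median scores of these classes were 105.34 and 94.76.

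Members scored higher than peaks with an incomplete ARE. At the same intergenic positions, 234 peaks held only the degenerate form, TGACNNNGC or TGAGNNNGC, and 91 of them (38.9%) scored above the list median. That was 18.2 points below the members (interval of the difference 10.8 to 25.2, Fisher's exact test, adjusted p = 2.28e-05). Among peaks with a score of at least 100, where the median was taken anew, the difference was 14.9 points and did not pass the test (adjusted p = 0.118 by the exact test). The 120 intergenic peaks with neither form had the lowest median, 75.38, against 80.93 for the degenerate form. Members were also wider, with a median of 516 bp against 462 bp for the degenerate form and 450.5 bp for neither. A wider peak has more room for a full ARE, and the part of width in the scores was not tested. The degenerate form was also in 20.1% of stretches of 300 bp taken 2 kb away from all peaks, so a match need not be a bound site. Full-ARE peaks made up 66.5% (63.6 to 69.4%) of the 1057 intergenic peaks within 50 kb of a TSS.

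**Figure D2:**
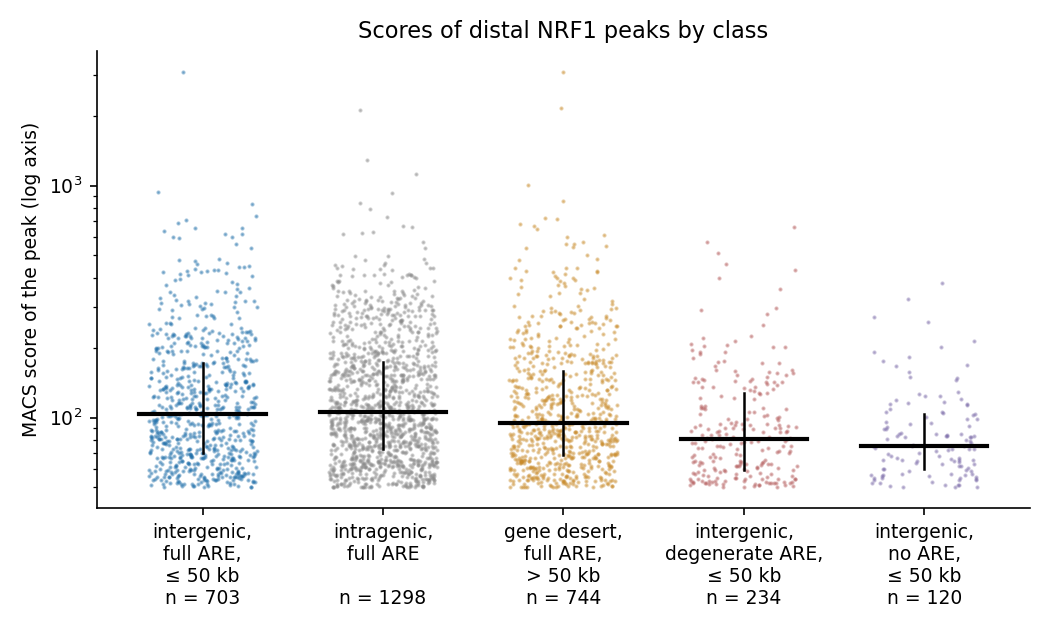
MACS scores on a log axis are drawn for the members and for the classes compared with them, with every peak as a point and the median and quartiles marked. The full-ARE classes lie close together, with medians of 103.69, 105.34 and 94.76, above the degenerate form at 80.93 and peaks without an ARE at 75.38.

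The full ARE sat close to the middle of the peak, although the rule allowed it anywhere in it. Its centre was a median of 29 bp from the peak centre, in peaks with a median width of 516 bp (208 to 2038 bp), and within 50 bp in 514 members (73.1%). The central 300 bp held a full ARE in 98.2% of members, which the rule largely fixes. Flanks of the same length, 2 kb away, held one in 0.569% of members. For all 5673 peaks with complete sequence the shares were 60.2% and 0.811%, and the degenerate form was in 84.3% of their windows and 20.1% of their flanks. The share with an ARE within 50 bp of the centre was 73.8% for intragenic peaks (difference -0.691 points, interval -4.80 to 3.30, adjusted p = 0.831) and 77.7% for gene-desert peaks (difference -4.57 points, interval -9.00 to -0.136, adjusted p = 0.143), by Fisher's exact test.

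**Figure D3:**
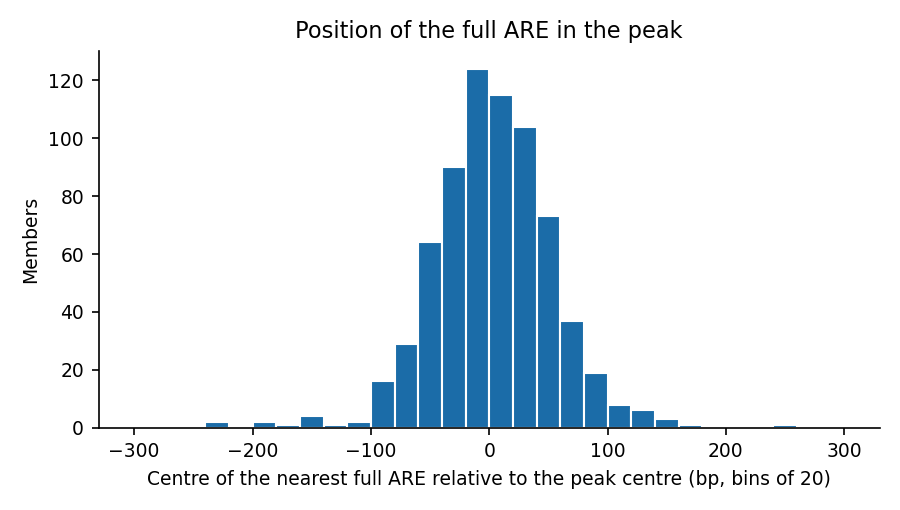
The histogram counts members by the position of their most central full ARE relative to the peak centre, in bins of 20 bp. Most of the distribution lies within 100 bp of the centre, and 514 of the 703 members lie within 50 bp.

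Most members held a single full ARE: 659 had 1, 36 had 2 and 8 had 3 or more, giving 794 AREs in all. Median scores were 102.69, 132.14 and 157.12 in that order. Spread was wide in the second group, with quartiles of 70.01 and 310.5, and in the third, with 93.05 and 319.38. The third group has only 8 members, with scores up to 3100, and the order of the medians was not tested. The number of AREs did not differ from that of other full-ARE peaks past the test. A share of 6.26% of members had at least 2, against 5.86% of intragenic peaks (difference 0.404 points, interval -1.70 to 2.75) and 6.72% of gene-desert peaks (difference -0.462 points, interval -3.02 to 2.12), each with an adjusted p of 0.831 by Fisher's exact test. In 356 members (50.6%, 46.9 to 54.4%) the MAF side of the ARE pointed away from the TSS, an interval that includes equal shares of both orientations.

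The open bases of the element were uneven. Positions are counted from 1 at the T of TGA. Position 4 was C in 573 members (81.5%) and G in 130, with median scores of 108.78 and 84.27. The base after the element, on the MAF side, was A in 78.7%, T in 10.2%, G in 6.54% and C in 4.55%. The base before it, on the cap'n'collar side, was A in 58.6%, G in 30.9%, C in 9.39% and T in 1.14%. These neighbours held 0.931 and 0.631 bits of information, after and before, out of a possible 2. Downstream, T was the base in 40.7% of members at position 12 and 44.8% at position 13. Some members share sequence around the ARE with another full-ARE peak, as described below. In the 491 members left without them, C at position 4 was in 77.2%, A after the element in 73.7% and A before it in 53.4%. Base use was not compared with that of AREs outside peaks. The AKIRIN2 sequence above has A on both sides of the ARE, and the FTH1 sequence has G before and A after it.

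Median scores differed with these neighbours. The 328 members with A on both sides (46.7%) had a median score of 112.34, those with A only after the ARE (225) 101.15, those with A only before it (84) 96.12, and the 66 with neither 75.27. By the base before the ARE, A and G had close medians of 109.14 and 107.84, whereas C (66 members) had a median of 69.89 and T (8 members) 71.34. These medians are a description, and 30.3% of members with C before the ARE reached a score of 100 against 55.1% with A. The members with C before the ARE also had a higher median GC content, 50.9%, than those with A, 43.4%; its part in the scores was not tested. Shared sequence was unevenly spread. Of the 328 members with A on both sides, 137 (41.8%) shared at least 20 identical bases around the ARE with another full-ARE peak of these classes. Of the 66 with neither, 8 (12.1%) did. Without such members the medians were 113 for A on both sides (191 members), 101.15 for A only after the ARE, 96.99 for A only before it and 70.28 for neither (58 members).

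**Figure D4:**
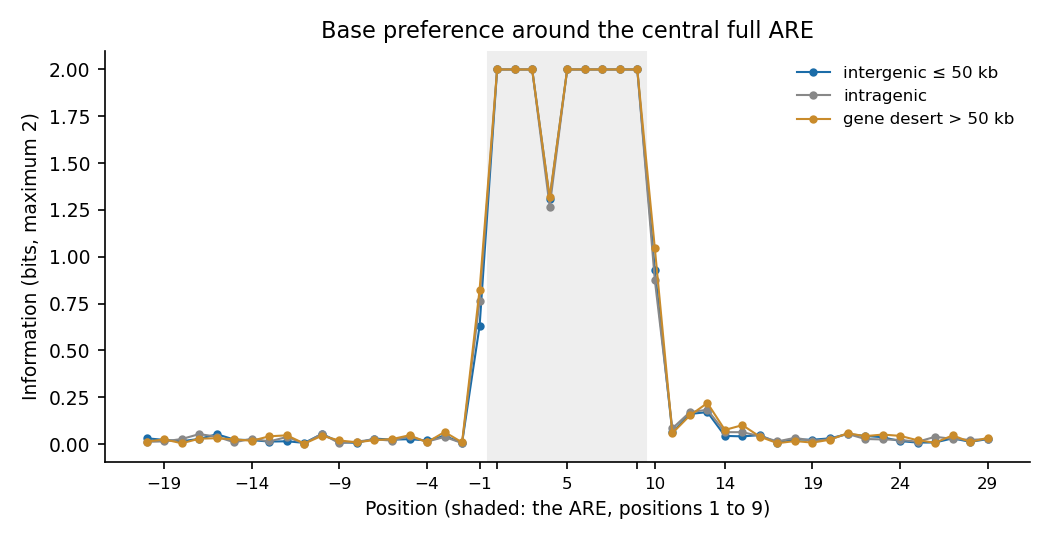
Information content in bits is drawn for each position around the central full ARE, for members and for intragenic and gene-desert full-ARE peaks; positions inside the ARE are set by the rule. Outside it, information is concentrated at the bases just before and just after, with 0.631 and 0.931 bits in members.

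The base before the ARE differed between members and gene deserts. A stood there in 58.6% of members (412), 67.1% of gene-desert peaks (499) and 63.9% of intragenic peaks (830). The difference from gene deserts was -8.46 points (interval -13.4 to -3.48, adjusted p = 0.00583, Fisher's exact test), and that from intragenic peaks was -5.34 points (interval -9.82 to -0.881, adjusted p = 0.0889). The first of these lost its call under 4 alternatives, with adjusted p of 0.118, 0.134, 0.118 and, without peaks of shared sequence, 0.0743 by the exact test (difference -7.95 points). A after the ARE was at 77.2% in intragenic peaks (difference 1.47 points, interval -2.40 to 5.18) and 82.0% in gene deserts (difference -3.33 points, interval -7.43 to 0.769), and neither passed. For C at position 4, the share was 79.5% in intragenic peaks (interval of the difference -1.70 to 5.53 points) and 81.9% in gene deserts (difference -0.347 points, interval -4.35 to 3.64), also not past the test.

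Besides the ARE, 7 motifs of other factors were counted in the central 300 bp of members and in their own flanks, on both strands. AP-1 sites (TGACTCA or TGAGTCA) that did not overlap a full ARE were in 11.2% of member windows and 5.12% of flanks, a difference of 6.12 points (exact McNemar test, adjusted p = 0.000190 over 7 motifs). All peaks, with or without a full ARE, had such a site in 18.4% of windows and 4.42% of flanks. Intragenic and gene-desert full-ARE peaks had one in 10.2% and 8.87% of windows. GGAATG, the site of TEAD factors, which act with AP-1 at many enhancers, was in 21.3% of windows and 14.9% of flanks, a difference of 6.40 points (adjusted p = 0.00487, exact McNemar test), and in 22.0% of all peaks. Intragenic and gene-desert full-ARE peaks held GGAATG in 22.7% and 23.1% of windows. In the central 200 bp the TEAD difference was 3.98 points and did not pass the exact McNemar test (adjusted p = 0.110). Members that share sequence around the ARE with another peak were kept in all motif counts. Their part in the AP-1 and TEAD differences was not tested.

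The other 5 motifs did not differ between window and flank past the exact McNemar test. The GC box GGGCGG was in 7.68% of windows and 5.41% of flanks (exact test, adjusted p = 0.246), against 11.9% of all peaks. The E-box CACGTG was in 2.84% and 3.84% of windows and flanks, the TCF/LEF site CTTTGAT in 3.70% and 4.41%, the forkhead site TGTTTAC in 4.55% and 3.56%, and the cAMP response element TGACGTCA in 0.284% and 0. A motif match is a string of letters and not a bound site.

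The member with the highest score lay 12319 bp downstream of the TSS of DBNDD1, inside the pseudogene AFG3L1P (chr16:90060832-90062869). Its score of 3100 was tied for the highest in the whole list. The gene-desert full-ARE class also reached 3100, and whether this value is a ceiling of the score was not tested. It held 39 full AREs, all on the plus strand, and the commonest of the 38 spacings between neighbours was 27 bp, seen 14 times. How reads were placed in this array was not tested.

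The next member by score, at 941, was 20242 bp upstream of IPO7, which encodes a nuclear import receptor, with AREs 19 bp to the left and 122 bp to the right of its centre. A score of 830.21 was found 21212 bp upstream of AKIRIN2, whose product helps bring proteasomes into the nucleus. Its 2 AREs were on opposite strands. BLOC1S4, a subunit of a complex that sorts cargo to lysosome-related organelles, had a member at 741.35, 16575 bp downstream of its TSS. ALPI, the intestinal alkaline phosphatase gene, had a member at 707.01, 11585 bp upstream and inside the pseudogene DIS3L2P1. The peak 9378 bp upstream of PSAP, which encodes the precursor of the saposins of lysosomal lipid breakdown, scored 687.86 and held 2 AREs, 1 on each strand. In the order given these members ranked 13, 23, 32, 42 and 44 in the list.

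The member of GPC1, the gene of the cell-surface proteoglycan glypican-1, scored 658.02 and was 47902 bp upstream. TRIM56, which encodes a ubiquitin ligase of antiviral signalling, had a member at 638.93, 10738 bp downstream of its TSS, and the ubiquitin ligase gene RNF213 had a member at 616.29, 5908 bp upstream, each with 2 AREs. The YPEL2 member scored 602.09 with 2 AREs, 34718 bp downstream and inside LINC01476.

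SLC25A10, the gene of the mitochondrial dicarboxylate carrier, had a member at 616.74, 6707 bp downstream of its TSS (chr17:79689182-79690236). Its 2 places each held an ARE on both strands, since the element was preceded by GC. That arrangement was found in the 49 bases around the central ARE of 7 members. At the central ARE itself, the palindrome reached 13 bases in this 1 only. A further SLC25A10 member 19644 bp downstream scored 56.88.

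Iron and carbonyl metabolism was represented by 3 genes. The FTH1 member (chr11:61739111-61739879) scored 655.90, rank 57 of the list, and was 4389 bp upstream of the TSS of FTH1, the ferritin heavy chain gene. FTH1 had no NRF1 peak within 2 kb of a TSS. AKR1C1 and AKR1C2 encode aldo-keto reductases that reduce steroids and reactive carbonyls. AKR1C2 had a member at 174.62, 2402 bp upstream, and AKR1C1 had members at 163.05 and 55.59, 21535 and 6231 bp upstream. The AREs of the AKR1C2 member and the higher AKR1C1 member lay in sequence shared between the gene copies, so that reads could be split between them. The ARE is in capitals in both sequences.
AKR1C2, chr10:5062594-5062642, minus strand: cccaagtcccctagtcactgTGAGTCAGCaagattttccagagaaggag
AKR1C1, chr10:4983866-4983914, plus strand: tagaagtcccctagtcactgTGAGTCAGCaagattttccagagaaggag

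Glutathione and thioredoxin defence was represented by ABCC2, ABCC4 and PRDX6. ABCC2, whose product exports glutathione conjugates, had a member at 126.30, 2624 bp upstream, beside a promoter peak of 96.96. For ABCC4, another transporter of organic anions, the member scored 103.92 and was 48078 bp upstream. PRDX6, a peroxiredoxin gene, had a member at 68.34, 23151 bp upstream and inside PRDX6-AS1. Quality control of proteins was represented by SYVN1, which encodes the ubiquitin ligase of endoplasmic-reticulum-associated degradation (211.01, 16270 bp upstream), and PSMG1, the gene of a proteasome assembly chaperone (83.21, 25290 bp downstream).

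Genes of stress response and growth arrest had 5 members. PMAIP1, which encodes the pro-apoptotic BH3-only protein NOXA, had members at 201.19 and 190.51, 18564 and 17679 bp downstream of its TSS. GADD45B, a gene of the DNA damage and growth arrest response, had a member at 199.78, 6512 bp upstream. The zinc finger factor genes KLF4 and KLF6 had members at 192.46 and 69.89, 7807 and 24991 bp downstream. The KLF6 member held 2 AREs.

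Nearest genes were mostly different from member to member. The 703 members had 669 distinct nearest protein-coding genes, 3.32% of 20136 genes, of which 636 had 1 member, 32 had 2 and HPCAL1, a gene of the neuronal calcium sensor family, had 3. The HPCAL1 members scored 336.62, 93.46 and 63.59 at 17156, 48042 and 12890 bp upstream. The 669 genes had an NRF1 peak at their own promoter about as often as all protein-coding genes. A peak within 2 kb of a TSS was found for 39 of them (5.83%, 4.18 to 7.88%), against 6.03% of all protein-coding genes. The share was 9.55% (7.91 to 11.4%) for genes nearest to intragenic full-ARE peaks and 5.51% (3.82 to 7.65%) for gene-desert peaks. PSAP and GPC1 were among those with both, with promoter peaks of 120.84 and 136.12.

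Of 10 lists of genes of proteostasis and stress, holding 249 genes, 12 genes (4.82%) were nearest to 14 members, against 3.32% of all genes. Stress response and arrest had 4 of 25, glutathione and thioredoxin 3 of 26, and the list of quinone, aldehyde, heme and iron genes 3 of 26. Proteasome genes had 1 of 48, whereas 37 of those 48 had an NRF1 peak within 2 kb of a TSS. Ubiquitin and p97 genes had 1 of 21. No member was nearest to any of 36 autophagy genes, of which 9 had a promoter peak, or to the 10 NADPH and pentose phosphate genes, 13 genes of CNC, BACH, MAF and KEAP1, 19 AP-1 and ATF genes or 25 heat shock genes. These counts are descriptions with no test, and long intergenic stretches beside a gene give it more chance to be the nearest.

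Many members shared sequence around the ARE with another member. The ARE itself, which the rule sets, can be part of the shared bases, and how often such matches arise by chance was not tested. Of the 703, 160 (22.8%, 19.7 to 26.0%) shared at least 20 identical bases in the 49 bases around the central ARE with another member, in 28 groups. Among intragenic and gene-desert full-ARE peaks the shares were 22.3% (20.1 to 24.7%) and 21.2% (18.3 to 24.4%). Each share was counted within its own class, so it also depends on the size of the class. When full-ARE peaks of all these classes were searched, 212 members (30.2%) shared sequence with another peak. The largest group had 68 members on 21 chromosomes, with scores of 52.43 to 443.4 and a median of 122.5, the highest near MELK (443.4), POLR2E (377.96) and CLDN3 (348.48). The commonest base at each position of this group gave the following sequence, with the ARE in capitals.
Largest group: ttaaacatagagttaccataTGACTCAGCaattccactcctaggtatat

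Single members of the largest group matched this sequence at 26 to 48 of 49 bases, with a median of 37. A stood before the ARE in 66 of the 68 members and after it in all 68. At least 100 was the score of 43 of the 68, against 44.3% of the list. No repeat annotation was used, so the family is not named, and the effect of reads that map to several copies was not tested.

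Copies of this repeat were compared by whether the ARE was intact, with the match set only by the ARE and the bases just after it. All copies in hg19 of the ARE with the 8 bases after it were counted, as TGACTCAGCaattccac. Of the intact copies, 94 of 187 lay in an NRF1 peak (50.3%, 42.9 to 57.6%), with a median score of 121.65. Of 1376 copies with 1 base of the ARE changed so that no full ARE was left, 1 lay in a peak (0.0727%). Changes are written with the base of the intact copy first, then its position from the T of TGA, then the base of the changed copy. The commonest change, T5C, was in 863 copies and accounts for that 1, with a score of 76.12, while C4T had 0 of 163 (exact upper limit 2.24%). T5C copies outnumbered the 187 intact ones. Intact and changed are therefore named from the sequence of the members, and which form came first was not tested. The change C4G, which keeps a full ARE, had 2 of 5 copies in a peak.

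The count was also made where the members lie, more than 2 kb from a TSS, outside protein-coding genes and within 50 kb. There, 23 of 32 intact copies (71.9%, 53.3 to 86.3%) were in a peak and 0 of 283 changed copies (exact upper limit 1.30%). The copies were counted after the shared sequences had been seen, and no test was made. Of all 53132 full AREs in hg19, 7.37% (7.15 to 7.59%) lay in a peak, and of the 8883 where the members lie, 8.94% (8.35 to 9.55%). The repeat was picked because many members share it, so its intact share is no estimate for AREs at large. That share cannot be carried over to other repeats. Members hold a full ARE by the rule, so this choice also favours intact over changed copies. How much of the contrast it sets was not tested. Of the intact copies in a peak anywhere in hg19, 23 were in members. No changed copy was in a member, which the rule largely fixes because members hold a full ARE. How alike changed and intact copies are outside these 17 bases was not tested. Copies with more than 1 change were not counted.

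**Figure D5:**
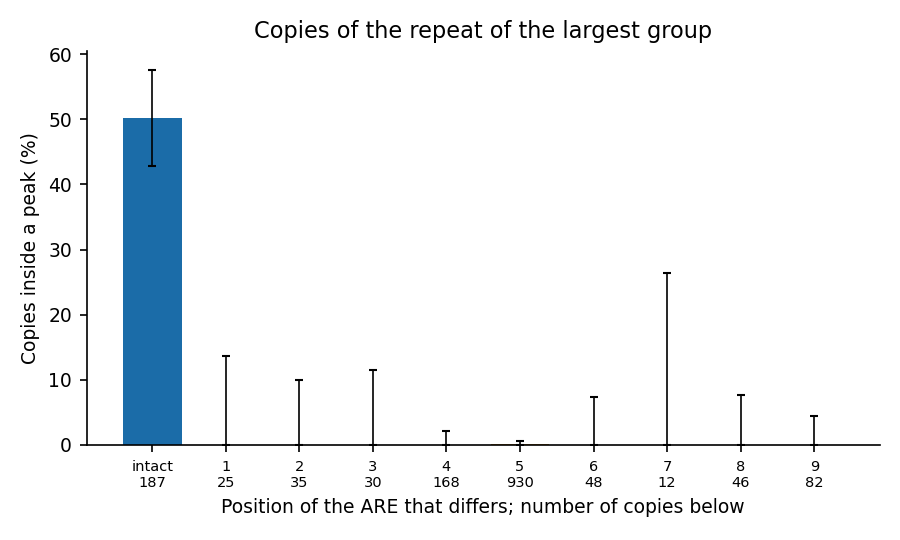
For the repeat of the largest group, the share of hg19 copies that lie in an NRF1 peak (percent, with 95% exact intervals) is drawn for intact copies and for copies that differ at 1 position of the ARE, with the number of copies under each. Intact copies were at 50.3%, and copies changed at most positions were at 0, with wide intervals where copies are few.

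Other groups included copies beside related genes. Members near NPIPB8, NPIPB9 and NPIPB7 on chromosome 16 had the same 49 bases and scored 274.07, 130.52 and 76.55. A group of 8 members included those near the olfactory receptor genes OR4F29, OR4F16 and OR4F3, with 230.15, 179.58 and 157.33, and others near unrelated genes such as METTL14 (139.99). Reads from such copies cannot be told apart where the sequences are identical.

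The rule has limits of distance. The 2 kb limit is to a TSS of any annotated gene, coding or not, which need not be the nearest protein-coding gene that names a peak. Just inside it were the members named after BCAN (2004 bp from any TSS, 6699 bp from that of BCAN, score 96.99), DDR1 (2121 and 47883 bp, 106.09) and CD99L2 (2189 and 14808 bp, 53.95). Just outside it were the full-ARE peaks named after OR11H6 (1996 and 4475 bp, 74.07) and KNG1 (1986 and 16842 bp, 97.99). The 50 kb limit is to the nearest protein-coding TSS. Just inside it were TMC1 (49504 bp, 316.56), ELF3 (49586 bp, 109.44) and SCARA3 (49767 bp, 192.92), and just outside it C5orf46 (50256 bp, 66.74), MAOA (50603 bp, 105.83) and CD93 (50686 bp, 53.95).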

How the data were processed

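The data were 1 NRF1 ChIP-seq library of HCT116 cells treated with MG132; the input library was not analysed here. The authors sequenced single-end reads, mapped them to hg19 with Bowtie2 (version 2.2.6) and called peaks with MACS (version 1.4.2). The deposited list gives the position and a score of each peak, which in MACS is −log10 of the peak's p-value multiplied by 10. MACS settings, the control used and the handling of duplicate reads are not given in the sources used here. Depth is unknown, and intervals (95%, exact Clopper-Pearson, or Newcombe for differences) cover counting error only.

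TSSs and genes were from GENCODE v44lift37, and sequence was from hg19. Of 5683 peaks, 5 on contigs and 5 with undetermined bases were left out of the sequence searches where these applied. Classes were compared with two-sided Fisher's exact tests (13 comparisons) and motifs with exact McNemar tests (7 motifs), each adjusted by Benjamini-Hochberg. Flanks were 300 bp long, 2 kb from the window, away from the TSS. Members were also recounted with a score of at least 100, ARE in the central 200 bp, other TSSs, peak edges, genes of every type, a 20 kb limit, without peaks of 5 or more AREs, and merged within 500 bp, and, chosen after seeing the data, without full-ARE peaks that share sequence. The members and gene lists were chosen with earlier results of these data known. Named are the 12 members with the highest scores, members nearest to a listed gene, genes nearest to 3 or more members and peaks at the limits; genes of repeated sequences were chosen after their values were seen. Searches and tests were checked on simulated data. Python 3.11.15, scipy 1.17.1, pandas 2.3.3, statsmodels 0.14.6 and pysam 0.24.0 were used. A further repeat group, with copies counted the same way, is not reported here.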

Additional observations from a re-analysis of the deposited data

How the results depend on the processing

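No paired analysis was possible because there was 1 ChIP library. Over the alternatives, 14 differences turned their direction, 6 lost their call and 3 counts or shares moved; none of the 14 was past the test in either form. The other 133 recomputed values were differences that stayed on their side of the threshold without turning, among them that of the cAMP response element, which was 0 in the central 200 bp and at a score of at least 100, counts of members within 1.5 times of 703, or shares of nearest genes within the exact interval. The number of members was 367 at a score of at least 100 and 336 with a limit of 20 kb. The calls lost were the score of the full against the degenerate ARE at a score of at least 100 (14.9 percentage points), A before the ARE against gene deserts at a score of at least 100 (-9.08), with genes of every type (-6.85) with the 20 kb limit (-7.19) and without full-ARE peaks that share sequence with another (-7.95), an alternative chosen after seeing the data, and the TEAD site in the central 200 bp (3.98). Nearest genes with a promoter peak were 3.90% at a score of at least 100. The share of all protein-coding genes at that score is not given, so 3.90% has no background to be read against. The differences that turned, in points, were as follows. At a score of at least 100 they were at least 2 AREs (-0.234), A after the ARE (-0.0859) and an ARE within 50 bp of the centre (0.158) against intragenic peaks, and the TCF/LEF site (0.817). With the ARE in the central 200 bp it was at least 2 AREs against intragenic peaks (-0.0295). With genes of every type they were the score (1.67) and the ARE within 50 bp (0.773) against intragenic peaks. With the 20 kb limit they were at least 2 AREs against gene deserts (0.455) and C at position 4 against intragenic peaks (-0.0426), and with peaks merged within 500 bp at least 2 AREs against gene deserts (0.274). With the flank on the other side they were the GC box (-0.284) and the TCF/LEF site (1.56). Without peaks that share sequence they were at least 2 AREs against intragenic peaks (-0.232) and C at position 4 against gene deserts (0.554). The cause of these changes was not tested. A peak list without depth or a second library gives no error of a score, and peaks under the lowest score of 50 are not seen.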
